A study of Mus musculus with 6 samples.

Results

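The enzymes of glycolysis and the genes that respond to low oxygen were followed in pancreata of E13.5 mouse embryos with activated β-catenin. A set of 38 genes was listed by name: the enzymes that turn glucose into pyruvate and lactate, the PFKFB and PDK enzymes that set the pace of glycolysis and of pyruvate use, the hypoxia-inducible factor (HIF) alpha subunits with the prolyl hydroxylases that control them, and other HIF targets. A gene was taken where the array annotation gave a row exactly 1 symbol and that symbol was in the list, and where a gene had several such rows the one with the highest mean over the 6 arrays was used. This gave 34 members of the 19938 genes that were measured: 16 glycolytic enzymes, 5 PFKFB and PDK genes, 4 HIF subunits and hydroxylases and 9 other HIF targets. Gpi1, Eno1, Pkm2 and Pfkfb1 were not found under those symbols and are not counted. Pkm, the current symbol of Pkm2, is given apart from the members.

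The mutant embryos were Pdx1-Cre; Ctnnb1 tm1Mmt/+ (labelled Pdx-Cre beta catenin-exon3 floxed, active): Cre made under the Pdx1 promoter, which acts in the pancreatic epithelium, removes exon 3 from 1 allele of the β-catenin gene and leaves a stabilized protein. The study describes cells in mutant pancreata without nuclear β-catenin and gives incomplete excision as the likely reason, so a mutant pool may mix cells with and without the active form. The control embryos were labelled wild type. Each group had 3 pools at E13.5, each of 3 whole pancreata with their mesenchyme, vessels and nerves, and each pool was hybridised to 1 Affymetrix Mouse Gene 1.0 ST array. Values are log2 array values, and a change is always the mutant mean minus the control mean, so that 1 on this scale is a doubling. Changes were tested with limma across all 19938 genes at a Benjamini-Hochberg adjusted p of 0.05, and the p-values measure the spread between these pools.

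Glycolysis splits glucose in the cytoplasm into pyruvate, which either enters the mitochondria or is reduced to lactate. With enough oxygen the prolyl hydroxylases mark the HIF alpha subunits for destruction. When oxygen is short the subunits persist, pair with a constant partner and bind DNA at a short core, often ACGTG. Such sites lie near genes for glucose uptake, glycolysis, pH control and the remodelling of collagen. The same genes also answer to other inputs, among them growth signals and cell type, and the level of HIF protein is set mainly after translation, so that a HIF subunit's RNA is a poor measure of its activity.

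Arrays of 1 genotype correlated at 0.993 to 0.997 over all genes and arrays of different genotypes at 0.973 to 0.979. Pdx1, the factor that defines the pancreatic epithelium, was at 5.86, 5.87 and 5.59 in the mutant pools, against 9.87, 9.95 and 9.97 in the control pools. Ctnnb1 itself was at 12.64, 12.37 and 12.65 in the mutant pools, against 12.36, 12.14 and 12.33 in the control pools (adjusted p = 0.148), a value that does not check the loss of exon 3, since the transcript of the recombined allele lacks only that part. These are whole organs, so a lower value may mean fewer cells of a type or less RNA in each cell, and the 2 cannot be told apart.

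The members moved in both directions. Of the 34 members, 11 passed the test (32.4%), while 14.1% of all genes did. Of these, 7 were higher in mutant pancreata (Pgk1, Tpi1, Ldha, Ldhb, Egln3, Bnip3 and P4ha1), beside 6.59% of all genes. The 4 lower ones were Aldoc, Pklr, Car9 and Ndrg1, beside 7.53% of all genes. In 17 members, 13 of them higher and 4 lower, the 3 mutant pools did not overlap the 3 control pools (50.0%), which was also so for 30.9% of all genes. The members are brighter than most genes, with 27 of the 34 above the median level. The dimmest, Adm and Pgam2, stood at percentile 29.7 of level, and no detection calls were used. When only genes above the median level were fitted, 2242 genes passed. The fit of all genes, which adds as many genes again from below the median, gave 2815. In the fit of the brighter genes 27 members were tested, with 9 higher and 3 lower. The share over all genes, which counts many dim genes, is therefore low for genes this bright. The members were also chosen with earlier results of these data known, so no excess of calls is claimed. The median change of the members was 0.06, close to the 0.03 of all genes, while single members changed by up to 3.32-fold. In the plot of member changes, the 3 members that changed by more than 1 on the log2 scale, Egln3, Ndrg1 and Car9, all belong to the oxygen response.

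**Figure D1:**
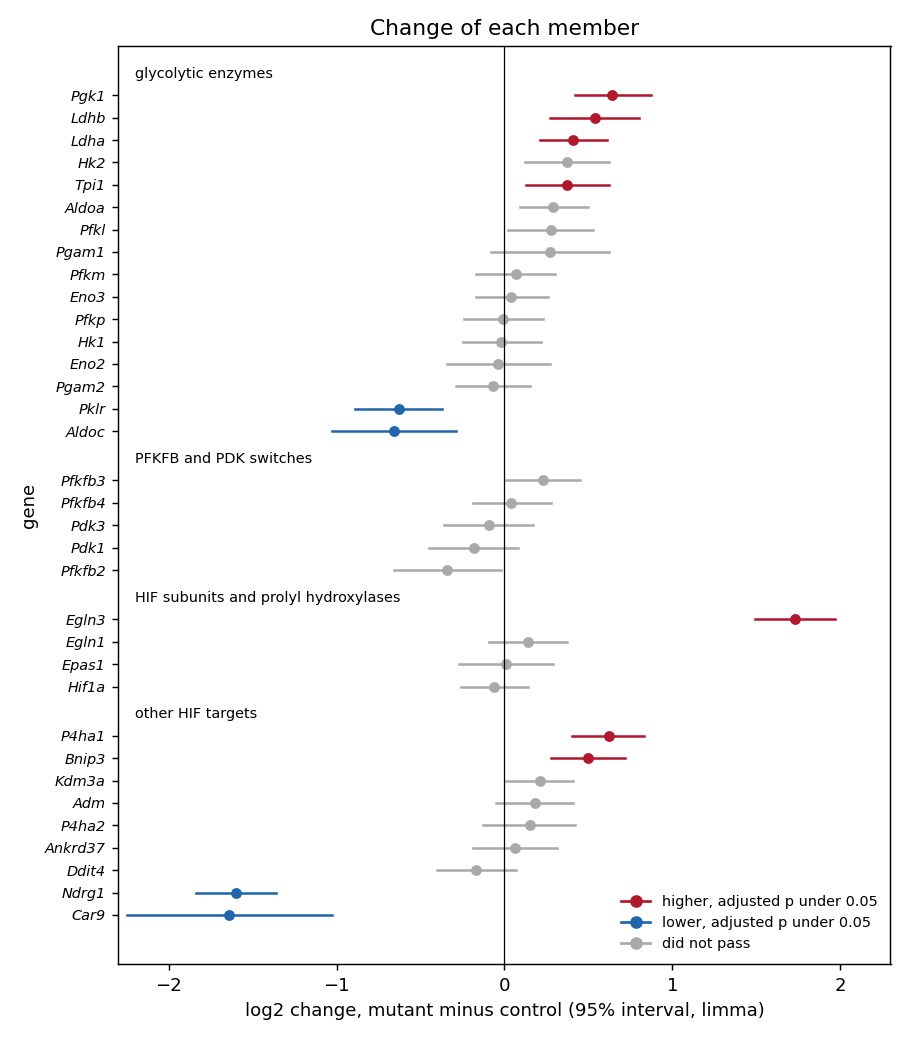
Log2 change of each of the 34 members, mutant minus control, with the 95% interval from limma (n = 3 pools per group), grouped by role. Red points are higher and blue points lower in mutant pancreata at an adjusted p of 0.05, and grey points did not pass. Egln3 lies far to the right at 1.73, Ndrg1 and Car9 far to the left at -1.60 and -1.64, and the glycolytic enzymes lie between -0.66 and 0.64.

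Among the 16 glycolytic enzymes, 4 rose, 2 fell and 10 did not pass the test (37.5% passed, beside 14.1% of all genes). Their median change was 0.17, beside 0.03 for all genes, and 10 of the 16 changes were positive. The mean value over the 16 enzymes was 9.18 to 9.20 in the mutant pools and 9.06 to 9.08 in the control pools. The enzymes that rose were Pgk1, Tpi1, Ldha and Ldhb, and the 2 that fell, Aldoc and Pklr, are forms of aldolase and pyruvate kinase typical of particular tissues.

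Hexokinases phosphorylate glucose on its entry into the cell. Hk2, the form that growth signals and low oxygen induce in many cells, was at 7.80, 7.89 and 7.85 in the mutant pools, against 7.59, 7.26 and 7.59 in the control pools. All mutant pools were above all control pools, with a change of 0.37 ± 0.11 (SE) that just missed the threshold (adjusted p = 0.0537) and passed it with the arrays centred on their medians (adjusted p = 0.0439). Of 17 limma refits Hk2 passed in 7, and its highest adjusted p was 0.145. Hk1, the form of most tissues, was at 12.25, 12.17 and 12.26 in the mutant pools, against 12.24, 12.08 and 12.41 in the control pools, with the groups overlapping and a 95% interval of -0.25 to 0.22. This row of Hk1 is annotated by a single GenBank entry. A second Hk1 row, which carries the RefSeq transcripts, was at 8.29, 8.22 and 8.12 in the mutant pools, against 7.96, 7.65 and 7.94 in the control pools, a change of 0.36 (adjusted p = 0.0564 with this row in the place of the first). The 2 rows of Hk1 therefore disagree, and its change is uncertain.

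Phosphofructokinase commits the sugar to glycolysis and exists in liver, muscle and platelet forms. Pfkl, the liver form, was at 9.74, 9.91 and 9.62 in the mutant pools, against 9.49, 9.32 and 9.62 in the control pools. The lowest mutant pool lay just above the highest control pool, and the change of 0.28 did not pass the test (adjusted p = 0.156). Pfkm, the muscle form, and Pfkp, the platelet form, overlapped between the groups, with changes of 0.07 (adjusted p = 0.762) and -0.01 (adjusted p = 0.981).

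Aldolase cleaves the sugar into triose phosphates. Aldoa, the widespread form, was at 11.34, 11.48 and 11.34 in the mutant pools, against 11.12, 11.14 and 11.02 in the control pools. Every mutant pool was above every control pool, with a change of 0.29 ± 0.09 (SE) that missed the threshold (adjusted p = 0.0653) and passed it with the arrays centred on their medians (adjusted p = 0.0441). Of 17 limma refits Aldoa passed in 6, and its highest adjusted p was 0.179. Aldoc, the form best known from brain, was at 7.96, 7.28 and 7.85 in the mutant pools, against 8.44, 8.24 and 8.39 in the control pools. Here every mutant pool was below every control pool, and Aldoc fell 1.58-fold (change -0.66, 95% interval -1.03 to -0.29, adjusted p = 0.0235). Without control replicate 1 or 3 the adjusted p of Aldoc was 0.0856 or 0.0791.

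Tpi1, which interconverts the triose phosphates, was at 11.84, 11.97 and 11.73 in the mutant pools, against 11.37, 11.63 and 11.41 in the control pools. The groups did not overlap, and Tpi1 was 1.30-fold higher (change 0.37, 95% interval 0.13 to 0.62, adjusted p = 0.0472). This call sat at the threshold: it was lost without any 1 of the mutant replicates or without control replicate 1 or 3, where the adjusted p was 0.0516 to 0.17.

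Pgk1, the first of the enzymes that yield ATP, had the largest rise of the glycolytic enzymes measured. It was at 11.49, 11.71 and 11.43 in the mutant pools, against 10.90, 10.95 and 10.85 in the control pools. No mutant pool overlapped the control pools, and Pgk1 was 1.56-fold higher (change 0.64, 95% interval 0.42 to 0.87, adjusted p = 0.0017). All 3 rows annotated to Pgk1 rose by 0.64 or 0.65, but 2 of them hold identical values, so they are not independent and signal from near-identical copies of the gene cannot be told apart.

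Phosphoglycerate mutase and enolase carry the chain on to phosphoenolpyruvate. Pgam1 was at 11.73, 11.84 and 11.50 in the mutant pools, against 11.33, 11.16 and 11.77 in the control pools, so that 1 control pool lay within the range of the mutant pools (change 0.27, adjusted p = 0.336). It too has 2 further rows with the same values as each other, and its level is uncertain for the same reason. Pgam2, the muscle form, changed by -0.07 (adjusted p = 0.741), Eno2, the neuronal enolase, by -0.04 (adjusted p = 0.913) and Eno3, the muscle enolase, by 0.04 (adjusted p = 0.849), and all 3 overlapped between the groups.

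Pyruvate kinase makes pyruvate. Pklr, the form of liver and red cells, which the endocrine pancreas also uses, was at 7.37, 7.31 and 7.11 in the mutant pools, against 8.06, 7.91 and 7.72 in the control pools. No mutant pool reached the lowest control pool, and Pklr was 1.55-fold lower (change -0.63, 95% interval -0.89 to -0.37, adjusted p = 0.0045). Pkm, the form of most embryonic and growing cells, was at 11.23, 11.07 and 11.22 in the mutant pools, against 10.92, 10.85 and 10.97 in the control pools, all higher, with a change of 0.26 that did not pass the test (adjusted p = 0.102).

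Lactate dehydrogenase turns pyruvate into lactate and restores the NAD that glycolysis needs. Ldha, the subunit of the form favoured in low oxygen, was at 11.79, 11.70 and 11.81 in the mutant pools, against 11.34, 11.42 and 11.30 in the control pools. Ldhb, the subunit of the heart form, was at 8.68, 8.52 and 8.91 in the mutant pools, against 8.07, 8.29 and 8.14 in the control pools. Both sets of mutant pools lay wholly above the control pools. Ldha was 1.33-fold higher (change 0.41, 95% interval 0.21 to 0.61, adjusted p = 0.011) and Ldhb 1.45-fold higher (change 0.54, 95% interval 0.27 to 0.80, adjusted p = 0.0124). A second row of Ldhb changed by 0.52. Leaving out mutant replicate 1 gave Ldha an adjusted p of 0.0608, and leaving out control replicate 1 gave Ldhb 0.0573.

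**Figure D2:**
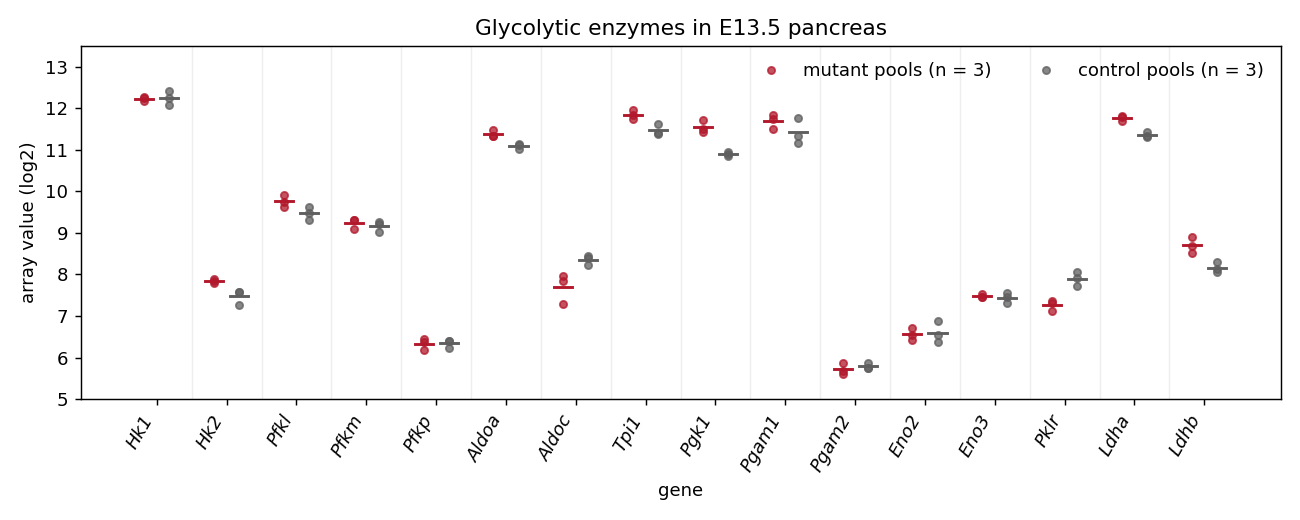
Log2 array values of the 16 glycolytic enzymes in pathway order, with 1 point per pool (red, 3 mutant pools; grey, 3 control pools) and a bar at each group's mean. Pgk1, Ldha, Ldhb and Tpi1 show mutant pools above control pools and Aldoc and Pklr mutant pools below them; heights of different genes are not comparable, since each row has its own probes.

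ACGTG, a form of the core that HIF binds, was searched in the 250 bases before each transcription start in the RefSeq promoter table (build GRCm38.p6). Both strands were searched, for the 32 members with an entry, which had 47 starts. Other forms of the core and sites outside these windows were not searched, so a gene without a match may still hold one. ACGTG stood before at least 1 start of 18 of the 32 members (56.2%) and of 20.9% of the 15614 tested genes with an entry. Its palindromic extension CACGTG, which overlaps it and is also the E-box of other factors, stood in 6 members (18.8%) and in 8.11% of tested genes. A match is a stretch of letters and not a shown binding site, and many of these genes are listed as members because they are known HIF targets. Among the members it was present in 5 of the 7 that were higher, in 1 of the 3 lower ones with an entry and in 12 of the 22 that did not pass. Over all genes it was in 22.5% of those higher and 21.9% of those lower in mutant pancreata, both close to the share of all tested genes. For the 2 glycolytic enzymes that rose and hold the core, Pgk1 and Ldha, the stretches are printed 5′ to 3′ on the gene's strand, with each match on either strand and 25 bases around the outer matches. Capitals mark the core, read as CACGT where it lies on the other strand.
Pgk1, chrX:106186925-106186998, plus strand: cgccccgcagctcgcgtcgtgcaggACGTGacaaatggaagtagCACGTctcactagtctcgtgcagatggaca
Ldha, chr7:46845634-46845799, plus strand: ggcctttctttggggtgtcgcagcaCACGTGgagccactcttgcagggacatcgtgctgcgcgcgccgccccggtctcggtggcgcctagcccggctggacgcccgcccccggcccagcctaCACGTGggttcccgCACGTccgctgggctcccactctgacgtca
Pgk1 has 2 matches, 1 on each strand, and Ldha has 5, since each CACGTG reads as the core on both strands. Tpi1 and Ldhb, which also rose, and Aldoc and Pklr, which fell, held no ACGTG in these windows, and 6 of the 16 glycolytic enzymes did (37.5%). CTTTGAT, a core of the TCF/LEF factors through which β-catenin acts, stood before Pklr and Car9 and before no other member (6.25% of the members, 3.32% of tested genes).

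The switches around glycolysis did not pass the test in any of the 5 genes measured, and their median change was -0.09. Pfkfb3, which makes the sugar phosphate that spurs phosphofructokinase and is a known HIF target, was at 7.98, 7.83 and 7.79 in the mutant pools, against 7.70, 7.54 and 7.67 in the control pools. Its groups did not overlap, but the change of 0.23 did not pass (adjusted p = 0.168). Pfkfb2, a form of heart and endocrine cells, was at 7.16, 6.94 and 7.42 in the mutant pools, against 7.49, 7.72 and 7.32 in the control pools (change -0.34, adjusted p = 0.173), with 1 mutant pool inside the control range. Pfkfb4 changed by 0.04 (adjusted p = 0.858). Pdk1 and Pdk3, kinases that shut pyruvate out of the mitochondria, changed by -0.18 (adjusted p = 0.403) and -0.09 (adjusted p = 0.70), with overlapping pools. By limma, 2 of the 5, Pfkfb3 and Pfkfb2, were below an unadjusted p of 0.05.

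Neither HIF alpha subunit passed the test. Hif1a was at 10.96, 10.98 and 11.09 in the mutant pools, against 11.00, 11.07 and 11.13 in the control pools, overlapping, with a 95% interval of -0.26 to 0.14 for the change. Epas1, the second alpha subunit, best known from endothelium, was at 9.05, 9.24 and 9.12 in the mutant pools, against 9.39, 9.04 and 8.95 in the control pools (95% interval -0.27 to 0.29). The arrays do not measure the proteins.

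Of the 2 prolyl hydroxylases among the members, Egln3 and Egln1, 1 passed the test. Egln3, a hydroxylase that is itself a HIF target and feeds back on the pathway, was at 9.10, 9.34 and 8.97 in the mutant pools, against 7.43, 7.38 and 7.41 in the control pools. The control pools lay within 0.05 of each other and the lowest mutant pool more than 1 above them on the log2 scale. Egln3 was 3.32-fold higher (change 1.73, 95% interval 1.49 to 1.97, adjusted p = 4.53e-06), the largest rise among the members measured. Egln1, the main oxygen sensor in most cells and also a HIF target, was at 9.36, 9.26 and 9.46 in the mutant pools, against 9.31, 9.27 and 9.08 in the control pools, overlapping, with a change of 0.14 (95% interval -0.09 to 0.37, adjusted p = 0.453). Within each array, Egln3 minus Egln1 was -0.26, 0.08 and -0.49 in the mutant pools, against -1.88, -1.89 and -1.67 in the control pools.

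The 9 other HIF targets split evenly: 2 rose, 2 fell and 5 did not pass (44.4% passed, beside 14.1% of all genes), with a median change of 0.15. Their range, -1.64 to 0.62, was wider on the low side than that of the glycolytic enzymes, -0.66 to 0.64, while the medians of the lists, 0.15 and 0.17, were close. With Egln3 counted among them there are 10 genes, 3 higher and 2 lower, and a median of 0.16. These lists are small and their difference was not tested.

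P4ha1, the catalytic subunit of the hydroxylase that stabilizes collagen, was at 9.55, 9.49 and 9.45 in the mutant pools, against 8.87, 9.00 and 8.76 in the control pools. Bnip3, which directs mitochondria to autophagy, was at 8.49, 8.47 and 8.61 in the mutant pools, against 7.91, 8.01 and 8.15 in the control pools. In both genes every mutant pool was above every control pool. P4ha1 was 1.53-fold higher (change 0.62, 95% interval 0.40 to 0.83, adjusted p = 0.00165) and Bnip3 1.41-fold higher (change 0.50, 95% interval 0.28 to 0.72, adjusted p = 0.00706). A second row of Bnip3 changed by 0.33 and did not pass when all rows were fitted (adjusted p = 0.157). P4ha2, a related catalytic subunit, changed by 0.15 (adjusted p = 0.525), with overlapping pools.

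Car9 and Ndrg1, both widely used as signs of low oxygen in tumours, were lower in mutant pancreata. Car9, a cell-surface carbonic anhydrase that controls pH, was at 5.79, 5.75 and 5.94 in the mutant pools, against 6.81, 8.20 and 7.38 in the control pools. The mutant pools were all below the control pools, which were themselves spread over more than 1 on the log2 scale. Car9 was 3.12-fold lower (change -1.64, 95% interval -2.25 to -1.03, adjusted p = 0.00255), and still lower without control replicate 2, its highest pool (change -1.27, adjusted p = 0.00111). Its mutant values lay near the mean of the skeletal muscle markers in those pools, 5.82 to 6.13. No detection calls were used, so the size of the fold is uncertain. Ndrg1, a stress-induced gene of epithelia and nerve sheaths, was at 8.25, 8.30 and 8.40 in the mutant pools, against 10.05, 9.97 and 9.73 in the control pools. The lowest control pool lay more than 1 above the highest mutant pool, and Ndrg1 was 3.03-fold lower (change -1.60, 95% interval -1.84 to -1.36, adjusted p = 6.45e-06).

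The remaining targets did not pass the test. Kdm3a, a histone demethylase, was at 9.09, 9.17 and 9.12 in the mutant pools, against 8.99, 8.84 and 8.94 in the control pools, all higher, but its change of 0.21 did not pass (adjusted p = 0.183). Adm, which encodes the vessel-relaxing peptide adrenomedullin, was at 5.76, 5.88 and 5.88 in the mutant pools, against 5.75, 5.73 and 5.50 in the control pools, also without overlap (change 0.18, adjusted p = 0.327). Ankrd37 changed by 0.06 (adjusted p = 0.82) and Ddit4, a stress-induced brake on mTOR, by -0.17 (adjusted p = 0.395), and both overlapped.

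**Figure D3:**
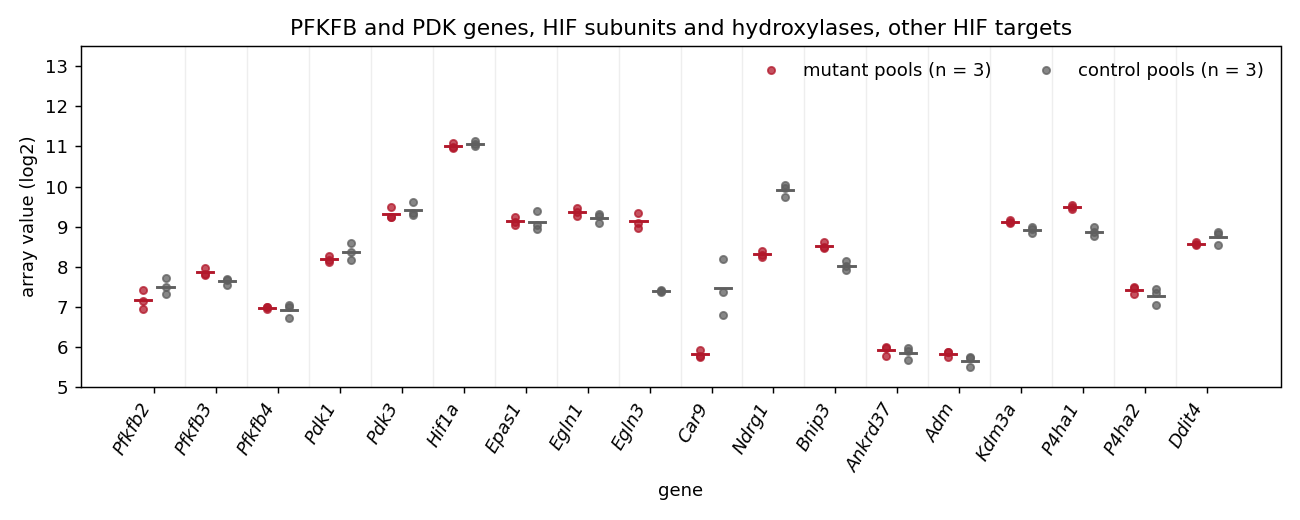
Log2 array values of the PFKFB and PDK genes, the HIF subunits and hydroxylases and the other HIF targets, with 1 point per pool (red, 3 mutant pools; grey, 3 control pools) and a bar at each group's mean. Egln3, Bnip3 and P4ha1 show mutant pools above control pools and Car9 and Ndrg1 mutant pools below them, while Hif1a and Epas1 overlap.

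Of the oxygen-response members that passed, 4 have an entry that holds the core, and their stretches are printed in the same way, except that those of Egln3, P4ha1 and Car9 are shorter on 1 side because they end at the edge of the window searched. Epas1 and Ndrg1 had no entry in the table.
Egln3, chr12:54204074-54204124, minus strand: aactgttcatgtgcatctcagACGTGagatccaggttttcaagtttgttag
P4ha1, chr10:59323255-59323295, plus strand: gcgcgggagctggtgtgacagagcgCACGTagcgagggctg
Bnip3, chr7:138909584-138909639, minus strand: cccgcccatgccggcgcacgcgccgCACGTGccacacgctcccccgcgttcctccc
Car9, chr4:43506983-43507025, plus strand: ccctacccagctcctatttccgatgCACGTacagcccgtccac
The core thus stood before Egln3, P4ha1 and Bnip3, which rose, and also before Car9, which fell. Of the 8 other HIF targets with an entry, 6 held it (75.0%).

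Related genes were also set against each other within each array. This removes a shift between arrays that both genes share, but not one that depends on a gene's level. Both genes were measured in 10 of the 13 pairs listed. In 4 pairs the mutant and control pools did not overlap, and these reached the smallest p that an exact two-sided permutation test of 3 pools against 3 can give, 0.1 (adjusted over the 10 pairs, 0.25), so no pair could pass. Egln3 over Egln1 was higher by 1.59 on the log2 scale, Hk2 over Hk1 was higher by 0.39, and Aldoc over Aldoa and P4ha2 over P4ha1 differed by -0.95 and -0.47. Aldoc minus Aldoa was -3.38, -4.20 and -3.49 in the mutant pools, against -2.68, -2.90 and -2.63 in the control pools, and mutant replicate 2 stood lowest. The balance of Hk2 and Hk1 rests on the Hk1 row whose companion disagrees with it. In the other 6 pairs, Pfkp and Pfkm with Pfkl, Pgam2 with Pgam1, Ldhb with Ldha, Pdk3 with Pdk1 and Epas1 with Hif1a, the pools overlapped, with differences of -0.34 to 0.12 and exact permutation p-values of 0.2 to 0.8.

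**Figure D4:**
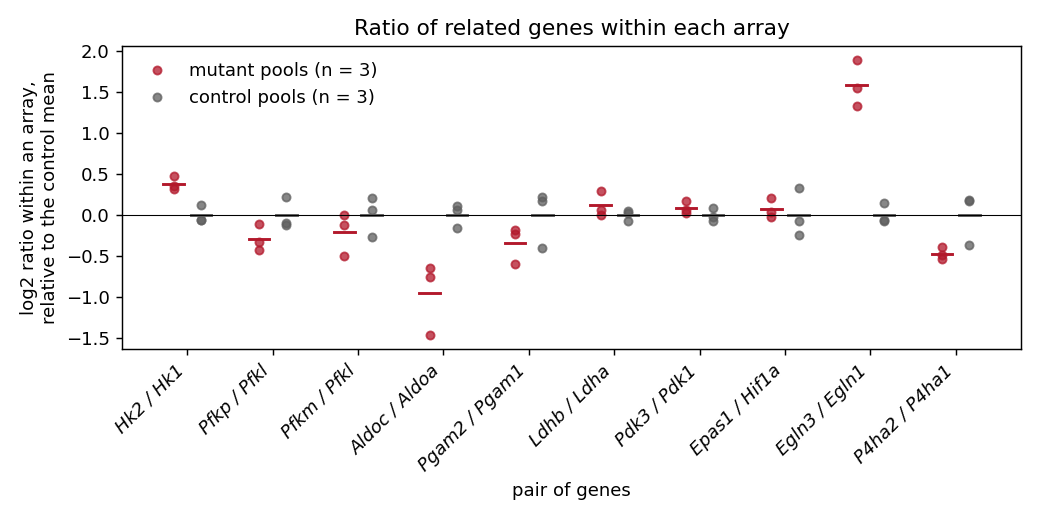
Log2 ratio of related genes within each array, minus the mean of the control pools, for 10 pairs, with 1 point per pool (red, 3 mutant pools; grey, 3 control pools) and a bar at each group's mean. Egln3 over Egln1 lies above the control pools by 1.59 and Aldoc over Aldoa below them by 0.95 on average.

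The neighbouring pathways were counted over lists of further genes. Among 14 further glycolytic enzymes none rose and 3 fell: Hkdc1, a hexokinase relative, with a change of -1.59 (adjusted p = 0.000191), Pgm1, a phosphoglucomutase, with -0.68 (adjusted p = 0.000591), and Galm, which turns the sugar ring and is named after its value was seen, with -0.55 (adjusted p = 0.0071). The list's median was 0.04. In limma, 1 of the 14 was higher at an unadjusted p of 0.05, and the difference from the members was not tested. Of 7 genes of gluconeogenesis, 1 fell, Fbp1, which reverses the phosphofructokinase step, with -0.86 (adjusted p = 0.01). Of 10 genes of pyruvate dehydrogenase and the pyruvate carriers, 1 fell, Pdp1, the phosphatase that activates the complex, with -0.45 (adjusted p = 0.0174). Of 15 citric acid cycle genes, 1 fell, Ogdh, with -0.35 (adjusted p = 0.0326). None of 7 pentose phosphate genes passed in limma or had an unadjusted p under 0.05 (smallest p for H6pd, change -0.20, adjusted p = 0.218), and none of 8 partners in oxygen sensing passed, with 1 under an unadjusted p of 0.05 (smallest p for Hif1an, the asparagine hydroxylase that limits HIF activity, change -0.20, adjusted p = 0.191).

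Among 23 further HIF targets, 4 rose and 2 fell (26.1% passed, beside 14.1% of all genes), with a median of 0.11. Slc16a3, which exports lactate, was at 8.67, 8.60 and 8.50 in the mutant pools, against 7.50, 7.52 and 7.56 in the control pools, and was 2.10-fold higher (change 1.07, adjusted p = 3.01e-05). Bhlhe40, a repressor of the clock and stress pathways, was at 7.04, 6.79 and 6.99 in the mutant pools, against 6.31, 6.58 and 6.01 in the control pools, a change of 0.64 (adjusted p = 0.0143). The other 4 that passed are named after their values were seen. Slc2a1, the main glucose carrier of embryonic cells, changed by 0.51 (adjusted p = 0.00937) and Tfrc, the transferrin receptor, by 0.43 (adjusted p = 0.03). Angptl4, a lipase inhibitor, changed by -0.59 (adjusted p = 0.00274) and Car12, a surface carbonic anhydrase like Car9, by -0.48 (adjusted p = 0.0488).

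**Figure D5:**
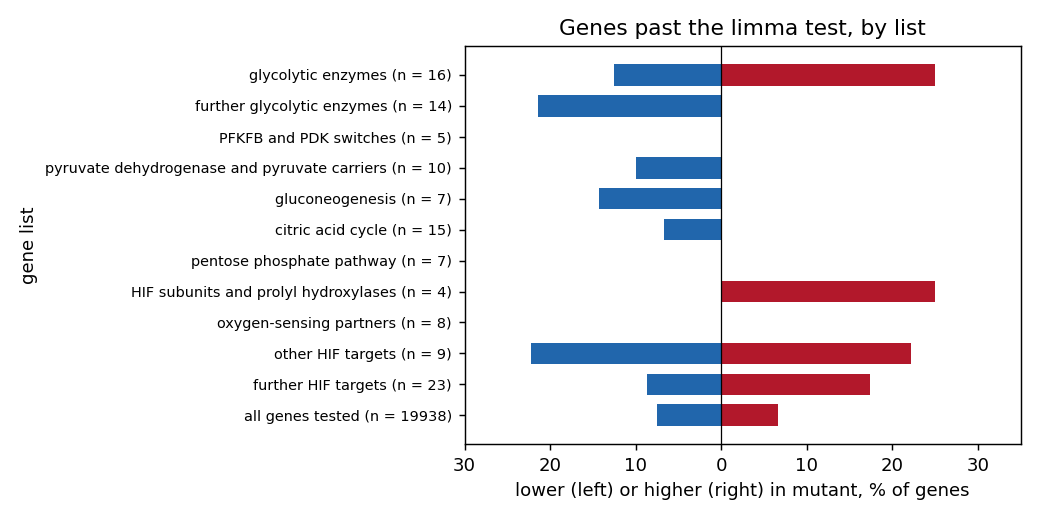
Share of the measured genes of each list that were lower (blue, to the left) or higher (red, to the right) in mutant than in control pancreata at a limma adjusted p of 0.05, in percent, with the number measured in each list. Calls in both directions stand in the glycolytic enzymes and both HIF target lists, and the bottom bars give all 19938 genes, 7.53% lower and 6.59% higher.

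Markers of cell types also changed in the same arrays, where 14.1% of all genes passed the test. Their values do not tell fewer cells of a type from less RNA in each cell. All 8 epithelial markers were lower, with a mean value of 9.50 to 9.64 in the mutant pools and 10.44 to 10.61 in the control pools (Krt8 -1.84, Cdh1 -1.68), as were all 5 acinar markers, at 6.78 to 7.15 in the mutant pools and 10.84 to 11.63 in the control pools (Ctrb1 -5.38, Pnliprp1 -5.28). All 8 endocrine markers were lower too, at 6.71 to 6.78 in the mutant pools and 9.58 to 10.22 in the control pools (Neurog3 -4.61, Neurod1 -3.99). Neural and glial markers were lower in 6 of 7, at 6.54 to 6.60 in the mutant pools and 7.57 to 7.71 in the control pools (Ret -2.59, Dcx -2.32). The median change of this list was smaller, -0.61, and Prph did not pass in limma (-0.26, adjusted p = 0.129). Liver markers were lower in 4 of 8, at 6.50 to 6.72 in the mutant pools and 8.42 to 8.51 in the control pools (Serpina1c -5.52, Vtn -4.42). The liver markers Alb, Afp, Apoa1 and Ahsg did not pass in limma (adjusted p = 0.441, 0.599, 0.12 and 0.797). The markers that were lower changed in the same direction as the members that fell, Aldoc, Pklr, Car9 and Ndrg1. Their part in those changes was not tested. Control replicate 2, highest for Car9, was also the highest pool for Ctrb1, at 13.08. Control replicate 1 was instead the highest pool for Ndrg1 (10.05), Pklr (8.06) and Aldoc (8.44). Whether members followed a marker from pool to pool was not tested.

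Of the smooth muscle markers, 5 of 8 were higher (Actg2 1.84, Myocd 1.70) and 1 lower. The lower one, Des, named after its value was seen, changed by -1.11. The mean value over the 8 was 7.78 to 7.91 in the mutant pools and 7.02 to 7.15 in the control pools. The 5 higher ones changed in the same direction as the members that rose. Their part in those changes was not tested either. General mesenchymal markers were at 10.51 to 10.62 in the mutant pools and 10.42 to 10.61 in the control pools, with 2 higher and 1 lower of 8 (Twist1 0.57, Col1a1 -0.45). Endothelial markers were at 9.11 to 9.27 in the mutant pools and 8.89 to 9.10 in the control pools, with 1 of 8 higher (Cdh5, 0.32). By limma 4 of these 8 were higher at an unadjusted p of 0.05 and none lower, and the list's median change was 0.27. Erythroid markers were at 8.23 to 8.58 in the mutant pools and 8.06 to 8.62 in the control pools (1 of 5 higher, Hbb-bh1, 0.59). Macrophage and leukocyte markers were at 7.52 to 7.82 in the mutant pools and 7.45 to 7.71 in the control pools, and skeletal muscle markers at 5.82 to 6.13 in the mutant pools and 5.92 to 6.14 in the control pools. By limma none of these 7 and 8 genes passed, and 2 and 0 were below an unadjusted p of 0.05 (smallest p for Mrc1, change -0.32, adjusted p = 0.0844, and for Myl1, change -0.46, adjusted p = 0.257). Of 16 housekeeping genes, 2 were lower and none higher, with a median change of -0.06.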

How the data were processed

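RNA of 6 pools of E13.5 pancreata, 3 mutant and 3 control, was measured on Affymetrix Mouse Gene 1.0 ST arrays. The authors deposited 1 table of log2 values with a row per transcript cluster. How background was corrected, probes were summarized and arrays were normalized is not given in the sources used for this work, so a normalization that ties the arrays together may hide a shift common to all genes. Array medians lay between 6.37 and 6.47. No detection calls were used, and the number of arrays limits the precision.

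Genes were named through the array annotation: of 35556 rows, 21789 had 1 symbol, 1621 several and 12146 none. The row with the highest mean was kept for the 999 genes with several. Groups and replicate numbers were read from GEO's labels and the number of pancreata per pool from the study's methods. The deposited log2 values were fitted with limma 3.58.1 in R 4.3.3 (lmFit, eBayes, no covariate, no filter), with the Benjamini-Hochberg adjustment over 19938 genes. The step was tested on simulated data. Python 3.11.15 with pandas 2.3.3, SciPy 1.17.1 and matplotlib 3.10.9 was used for lists, permutation tests, promoters and figures.

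All members are named, and of each other list the 2 with the largest change among those that passed, or else the one with the smallest p. Pkm was added as the present symbol of Pkm2, and Pdx1 and Ctnnb1 as checks. The members and lists were chosen with earlier results of these data known. Alternatives tried were a block on the replicate number, leaving out single arrays, other scalings, filters on dim genes, other rows per gene, another variance prior, array weights, other thresholds and, added after seeing the data, the second Hk1 row.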

Additional observations from a re-analysis of the deposited data

How the results depend on the processing

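No member that passed the test changed sign under any alternative tried. Pgk1, Egln3, Bnip3, P4ha1, Pklr and Ndrg1 passed under all 17 refits and Car9 under the 16 that tested it, while Tpi1 lost its call in 7, Aldoc in 3, Ldhb in 2 and Ldha in 1. Hk2 passed in 7 and Aldoa in 6 refits.

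The count of all genes called, 2815, was 1779 with all rows of the table fitted, 5447 with array weights, 1745 at an adjusted p of 0.01 and 5081 at an unadjusted p of 0.05. Leaving out 1 array gave 1975 to 2741 genes, 5 to 7 members higher and 3 to 4 lower, with median changes of 0.12 to 0.18 for the glycolytic enzymes and 0.10 to 0.22 for the other HIF targets. Without mutant replicate 1, 843 of all genes were higher, against 1313 with it. The 7 members higher became 11 with array weights, 4 at an adjusted p of 0.01 and 12 at an unadjusted p of 0.05.

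Of all genes called, 46.6% were higher as deposited, 54.8% with arrays centred on their medians (1667 higher, 1375 lower), 67.9% with arrays centred on the housekeeping genes (2365 higher, 1119 lower) and 48.6% after quantile normalization. Centring on the housekeeping genes put the median of all genes at 0.14, beside 0.27 for the glycolytic enzymes and 0.25 for the other HIF targets. With the second Hk1 row the median of the glycolytic enzymes was 0.27.

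The replicate numbers did not pair the pools (correlations of same-numbered deviations 0.014, -0.154 and -0.0464). With the replicate block, 2285 genes were called, with 7 members higher and 4 lower.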
